A study of Danio rerio with 20 samples.

Results

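The genes described here make, carry and break down the monoamine transmitters and histamine in the zebrafish brain. They are the 10 genes hdc, th, th2, slc6a3, dbh, tph2, slc6a4a, ddc, slc18a2 and mao, found by symbol among the 32105 genes of a table of read counts. For 9 of them the symbol was found as such, ignoring case. The serotonin transporter slc6a4a was found under its symbol without the copy letter. All 10 passed the filter on low counts, which kept 21148 genes. The libraries were made from brain RNA of male Danio rerio of the strain labelled AB JxTu. There were 4 groups of 5 libraries: 3-year-old fish with swim-tunnel exercise, 3-year-old fish without, 1-year-old fish with swim-tunnel exercise and 1-year-old fish without. Exercise was thus compared at each age, and age within each exercise condition. The labels do not tell how long or how hard the fish swam. Nor do they say that each library came from a separate fish, so the p-values measure the spread between these libraries, which may be partly technical.

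Monoamine neurons are few, lie in small nuclei and send their fibres through most of the brain. Each type makes its transmitter from an amino acid by a short series of enzymes. It then loads the transmitter into vesicles through a shared carrier and, for dopamine, noradrenaline and serotonin, takes it back up through its own transporter at the cell surface. In zebrafish, histamine neurons lie in the hypothalamus, serotonin neurons in the raphe, hypothalamus and pretectum, noradrenaline neurons in the locus coeruleus and medulla, and dopamine neurons in several forebrain groups. Histamine is also made by mast cells, and serotonin also by the pineal gland and retina.

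The identifiers in the count table were ENSDARG00000075454 for hdc, ENSDARG00000030621 for th, ENSDARG00000038384 for th2, ENSDARG00000004219 for slc6a3 and ENSDARG00000069446 for dbh. They were ENSDARG00000057239 for tph2, ENSDARG00000061165 for slc6a4a, ENSDARG00000016494 for ddc, ENSDARG00000015110 for slc18a2 and ENSDARG00000023712 for mao. The library kit does not keep the strand, so reads from a gene and from a gene overlapping it on the other strand cannot be told apart.

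The libraries held 23390453 to 34587938 counted reads. Levels are given as normalised counts in CPM, the gene's count relative to the library total scaled by edgeR's trimmed mean factor, unless stated otherwise. The 14 general neuron markers, used to check the brain label, summed to 8790 to 12700 CPM over the 20 libraries, and none was at 0. Some libraries stood apart in markers of other tissues. A score over 26 retina and pineal markers, the mean of log2(CPM + 0.1), was 1.76 to 1.92 in 3 libraries, 3-year exercised replicates 2 and 4 and 1-year exercised replicate 3, against -1.31 to -0.58 in the other 17. Summed pituitary markers reached 1710 CPM in 3-year exercised replicate 1. Summed skeletal muscle markers reached 4250 CPM in 1-year unexercised replicate 1. Summed epidermis markers reached 2660 CPM in that same library and 1790 CPM in 3-year unexercised replicate 3. Results were computed again without the first 3 of these libraries and, separately, without the other 3.

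Of the 10 genes, hdc alone passed the edgeR test, and it did so in 2 of the 3 comparisons of age. The gene encodes histidine decarboxylase, which makes histamine from histidine. In 3-year exercised fish its level was 29.3, 32.9, 23.2, 33.4 and 20.6 CPM, against 48.5, 59.0, 50.6, 53.8 and 50.2 CPM in 1-year exercised fish. The 2 groups did not overlap. The means were 27.9 ± 5.73 CPM in 3-year exercised fish and 52.4 ± 4.14 CPM in 1-year exercised fish (SD, n = 5 each). The log2 fold change was -0.91 ± 0.15 (SE), with a 95% interval of -1.23 to -0.59, or 0.532 times the 1-year level. Its adjusted p was 0.00336 in edgeR's quasi-likelihood test with Benjamini-Hochberg adjustment. In this comparison 1 of the 10 genes was called, and it was lower, while 10.6% of all genes tested were called and 3.88% were called lower. All 30 alternative settings called it, with log2 fold changes between -1.12 and -0.82. In whole-brain RNA, fewer cells of a type and less RNA per cell cannot be told apart.

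In fish without exercise the hdc groups overlapped. The level was 46.8, 54.1, 42.7, 28.6 and 36.9 CPM in 3-year unexercised fish, against 43.3, 47.2, 50.9, 52.3 and 56.9 CPM in 1-year unexercised fish. Replicate 4 of the 3-year unexercised fish was the lowest of these, and replicate 2 of the same group was above 4 of the 5 younger ones. This gave -0.26 ± 0.15 on the log2 scale, with an interval of -0.57 to 0.05 and an adjusted p of 0.453, and leaving out 1 library at a time gave -0.37 to -0.15. Here 0 of the 10 genes were called by edgeR, DESeq2 or limma-voom and 0 had an unadjusted p below 0.05, beside 0.586% of all genes called and 14.1% with an unadjusted p below 0.05. With both exercise conditions averaged, hdc was lower at 3 years by a log2 fold change of -0.59 ± 0.11, or 0.667 times the 1-year level, with an adjusted p of 0.00174. It was the 1 gene of 10 called in that comparison, in which 16.9% of all genes were called and 7.3% were called lower. All 29 alternative settings called this change too.

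Within 3-year fish, hdc averaged 27.9 ± 5.73 CPM with exercise and 41.8 ± 9.70 CPM without (SD, n = 5 each). Of the 5 exercised libraries, 3 lay above the lowest unexercised one, at 28.6 CPM. The log2 fold change was -0.59 ± 0.15 with an interval of -0.90 to -0.27. The unadjusted p was 0.00103, but over all genes the adjusted p was 0.261, so the change did not pass the edgeR test. DESeq2 called it, with an adjusted p of 0.0349, and the other alternatives gave adjusted p-values of up to 0.505. Within 1-year fish, hdc averaged 52.4 ± 4.14 CPM with exercise and 50.1 ± 5.15 CPM without. That is a log2 fold change of 0.06 ± 0.15, with an interval of -0.25 to 0.38 and an adjusted p of 0.898. The difference between the exercise effects at 3 years and at 1 year was -0.65 ± 0.21, with an unadjusted p of 0.00651 and an adjusted p of 0.982. The same contrast is the difference between the age effects with and without exercise, so neither was shown to differ between the conditions.

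**Figure D1:**
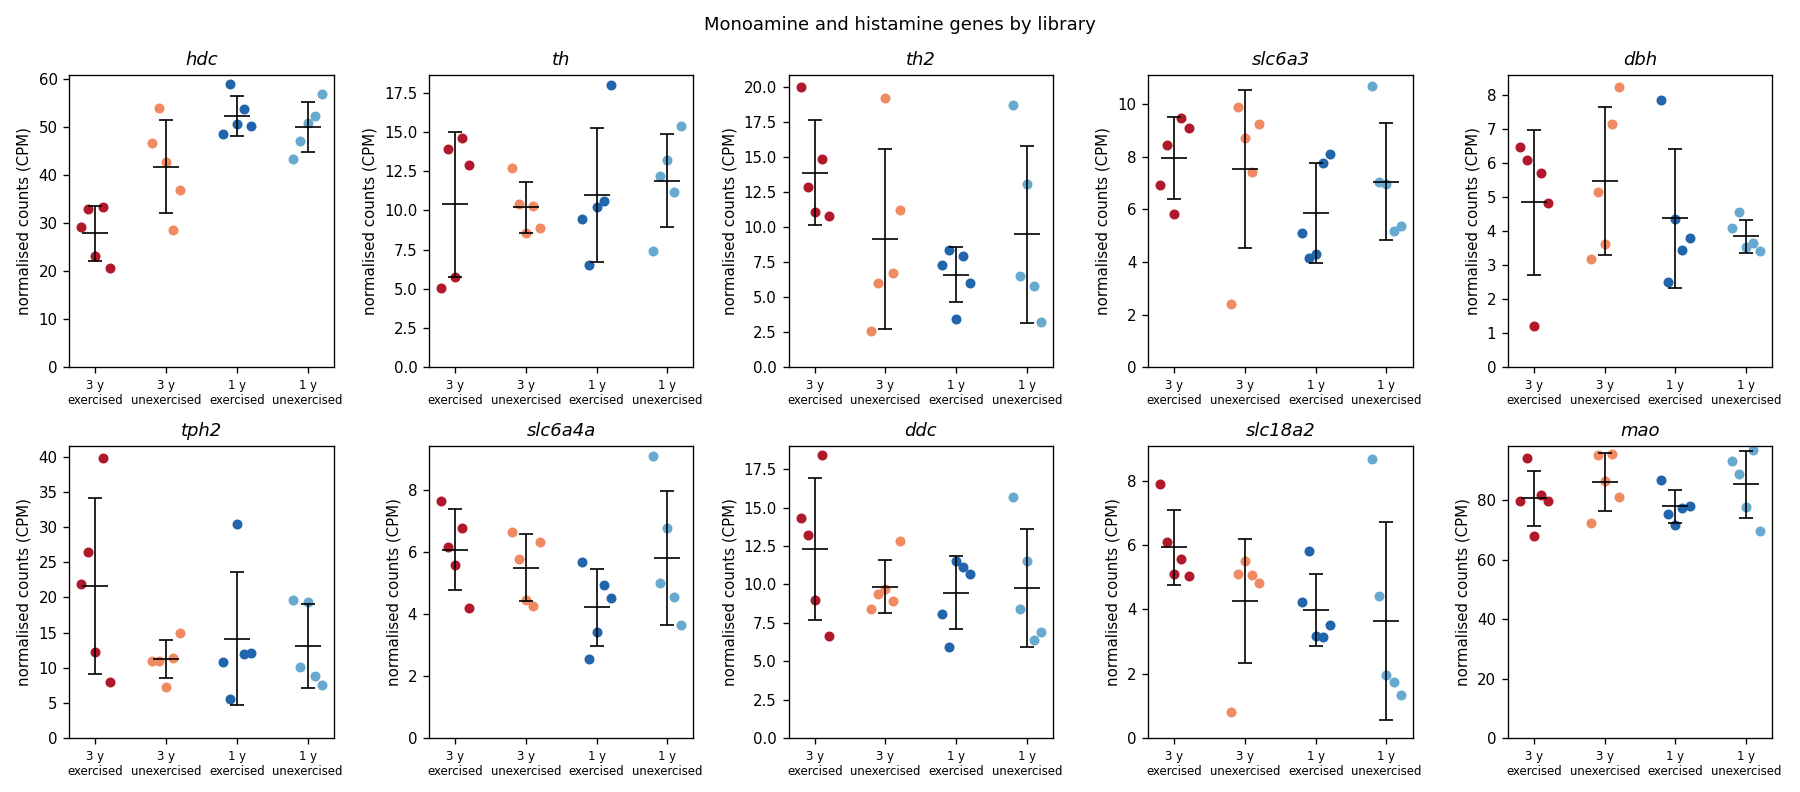
Normalised counts (CPM, vertical axis from 0) of the 10 genes in the 4 groups of 5 libraries, 1 panel a gene; points are libraries, horizontal marks are group means and bars are SD. The hdc points of 3-year exercised fish, between 20.6 and 33.4 CPM, lie below all points of 1-year exercised fish, between 48.5 and 59.0 CPM.

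Some markers of neurons, immune cells and other tissues also differed between 3-year and 1-year exercised fish. In that comparison edgeR called 10.6% of all genes tested, and 3.88% were called lower. None of the 14 general neuron markers had a log2 fold change above 0 in 3-year against 1-year exercised fish, with a median of -0.23 beside 0.01 over all genes. Of these, 3 were called lower, among them NSF at -0.40, a gene of vesicle fusion, and eno2 at -0.34, a gene of neuronal glycolysis. The calls of NSF and eno2 were held in 27 and 20 of 30 alternative settings; that of NSF was lost without 1-year exercised replicate 4 or 5, with adjusted p-values of 0.0527 and 0.0538. The neuron score was 8.30 to 8.63 in 3-year exercised fish and 8.69 to 8.78 in 1-year exercised fish. Within groups, hdc and that score had a Pearson correlation of -0.16 and a Spearman correlation of -0.14 over 20 libraries. Their permutation p-values were 0.553 and 0.617, or 0.801 and 0.828 adjusted over 110 relations of genes to scores. Without the 2 libraries farthest from the median score, 3-year exercised replicate 1 and 1-year unexercised replicate 1, the Pearson correlation was -0.45. The hypothalamus score ranged from 1.32 to 3.15 in 3-year exercised fish and from 0.77 to 3.14 in 1-year exercised fish, and 0 of its 14 markers were called by edgeR, 1 had an unadjusted p below 0.05, 1 was called by DESeq2 and 0 by limma-voom. Of the mast cell and granulocyte markers, 5 were found and none was at 0, while cpa5, the defining zebrafish mast cell protease, matched no identifier. Their summed level was 67.8 to 134 CPM in 3-year exercised fish and 46.1 to 58.9 CPM in 1-year exercised fish. Among them fcer1gl, an Fc receptor subunit of immune cells, rose by a log2 fold change of 1.09 with an adjusted p of 0.0125, opposite in sign to hdc. It was the 1 marker of these 5 that was called. All 3 tested pituitary markers were called higher by edgeR and 0 by limma-voom, and DESeq2 gave them no adjusted p. None of the 3 was called by edgeR without 3-year exercised replicate 1, the library with high pituitary markers. All 9 tested hindbrain markers had a log2 fold change above 0, with a median of 0.57; 0 were called by edgeR, 0 by DESeq2 and 0 by limma-voom, and 0 had an unadjusted p below 0.05. Without the libraries with high muscle, epidermis or pituitary scores, that replicate among them, hdc was still called, at -0.93 with an adjusted p of 0.0104. The part of neurons and immune cells in the hdc level was not tested.

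The catecholamine enzymes th and th2 encode tyrosine hydroxylases, which carry out the first and rate-limiting step from tyrosine towards dopamine. In zebrafish, th2 is mostly a gene of the hypothalamus. The level of th2 in 3-year exercised fish was 20.0, 12.9, 11.1, 14.9 and 10.8 CPM, against 7.32, 8.39, 3.42, 7.92 and 6.04 CPM in 1-year exercised fish. These groups did not overlap, which made th2 and hdc the 2 of 10 genes without overlap in this comparison, beside 11.3% of all genes. The log2 fold change of th2 was 1.07 ± 0.47 with an interval of 0.10 to 2.05, an unadjusted p of 0.0328 and an adjusted p of 0.148. It was called, with an adjusted p of 0.0221, when only these 2 groups were fitted. The unexercised groups were far more spread. There th2 was 2.59, 6.03, 19.2, 6.72 and 11.2 CPM in 3-year fish and 18.7, 6.49, 13.1, 5.83 and 3.27 CPM in 1-year fish, which gave a log2 fold change of -0.05 ± 0.46. The highest of all 20 libraries, at 20.0, 19.2 and 18.7 CPM, were those with high muscle, epidermis or pituitary scores. Within groups, th2 had Pearson and Spearman correlations of 0.68 and 0.71 with the muscle score and 0.29 and 0.58 with the pituitary score. Adjusted over 110 relations, the permutation p-values were 0.0907 and 0.0781 for muscle and 0.0907 and 0.0462 for pituitary. The part of those tissues in the th2 level was not tested. The change of th2 with exercise was 0.61 ± 0.46 at 3 years and -0.52 ± 0.46 at 1 year, and neither passed the test. At 3 years it was 0.37 without 3-year unexercised replicate 1 and 1.07 without replicate 3 of that group. At 1 year it was -0.10 without 1-year unexercised replicate 1 and -0.74 without replicate 5 of that group.

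Tyrosine hydroxylase th averaged 10.4 ± 4.63 CPM in 3-year exercised fish, 10.2 ± 1.63 CPM in 3-year unexercised fish, 11 ± 4.26 CPM in 1-year exercised fish and 11.9 ± 2.95 CPM in 1-year unexercised fish. Its log2 fold changes lay between -0.22 and 0.04 in the 4 comparisons of single groups. In 3-year exercised fish the 5 libraries fell into a low pair, at 5.08 and 5.75 CPM, and 3 at 12.9, 13.9 and 14.6 CPM. The dopamine transporter slc6a3, which takes dopamine back into the neuron, averaged 7.95 ± 1.55 CPM in 3-year exercised and 5.88 ± 1.90 CPM in 1-year exercised fish. That difference was 0.43 ± 0.31 on the log2 scale, with a 95% interval of -0.21 to 1.08, and did not pass the edgeR test. Dopamine beta-hydroxylase dbh, which turns dopamine into noradrenaline, averaged 5.48 ± 2.19 CPM in 3-year unexercised and 3.85 ± 0.477 CPM in 1-year unexercised fish. The 3-year libraries held 3.18, 5.16, 3.63, 7.15 and 8.25 CPM, against 4.09, 4.58, 3.54, 3.66 and 3.41 CPM in the 1-year libraries, and the groups overlapped. On the log2 scale dbh differed by 0.51 ± 0.37 with an adjusted p of 0.575, and by 0.31 to 0.65 with 1 library left out at a time. The lowest dbh value of all was 1.21 CPM, in 3-year exercised replicate 3. That library was 1 of the 2 farthest from the median hindbrain score, and the scores of its group ran from -0.61 to 2.34. Within groups, dbh and that score had a Pearson correlation of 0.69 and a Spearman correlation of 0.46. Their permutation p-values were 0.2 and 0.324, adjusted over 110 relations. Without the 2 farthest libraries the Pearson correlation was 0.12. The part of the hindbrain in the dbh level was not tested.

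The serotonin genes were tph2 and slc6a4a. Tryptophan hydroxylase tph2 makes the first and rate-limiting step from tryptophan to serotonin. With exercise at 3 years it was 21.9, 26.4, 12.2, 39.8 and 7.93 CPM, against 11, 11, 7.34, 11.4 and 15 CPM without. The exercised libraries covered a wider range, and 3 of them lay above every unexercised one. The log2 fold change was 0.96 ± 0.44 with an interval of 0.04 to 1.87, an unadjusted p of 0.0412 and an adjusted p of 0.584. At 1 year the values were 10.8, 5.62, 30.4, 11.9 and 12.1 CPM with exercise, against 19.7, 10.1, 19.3, 8.79 and 7.55 CPM without, a log2 fold change of 0.11 ± 0.43.

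The 3 highest tph2 values were those of the 3 libraries with high retina and pineal scores, where tph2 was 26.4 to 39.8 CPM, against 5.62 to 21.9 CPM in the other 17. In the same 3 libraries ASMT, the last enzyme of melatonin synthesis, was 25.1 to 34.1 CPM, against 0.34 to 2.06 CPM in the others. The pineal enzyme aanat2, which acts before it, was 6.16 to 9.86 CPM there, against 0.51 to 3.19 CPM. A TPH1 copy, a tryptophan hydroxylase known from the pineal gland, was 24.7 to 31.4 CPM there, against 2.79 to 24.3 CPM. Without those libraries the log2 fold change of tph2 with exercise was 0.33 at 3 years, -0.38 at 1 year and -0.02 averaged over the ages, where all libraries had given 0.53 ± 0.31. Within groups, tph2 and the score had a Pearson correlation of 0.70 and a Spearman correlation of 0.62 over 20 libraries. Their permutation p-values were 0.0145 and 0.0139, or 0.151 and 0.170 adjusted over 110 relations of genes to scores. Without the 2 libraries farthest from the median score, 3-year exercised replicate 4 and 1-year exercised replicate 3, the Pearson correlation was 0.41. The remaining library with a high score, 3-year exercised replicate 2, was kept in that value. All 3 libraries with high scores were exercised ones. The other 7 exercised libraries scored -1.31 to -0.58, against -1.13 to -0.60 in the unexercised ones. Leaving out these 3 exercised libraries, which held the highest tph2 values, had to lower the fold change of tph2 with exercise. The part of retina and pineal tissue in the tph2 level was not tested.

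**Figure D2:**
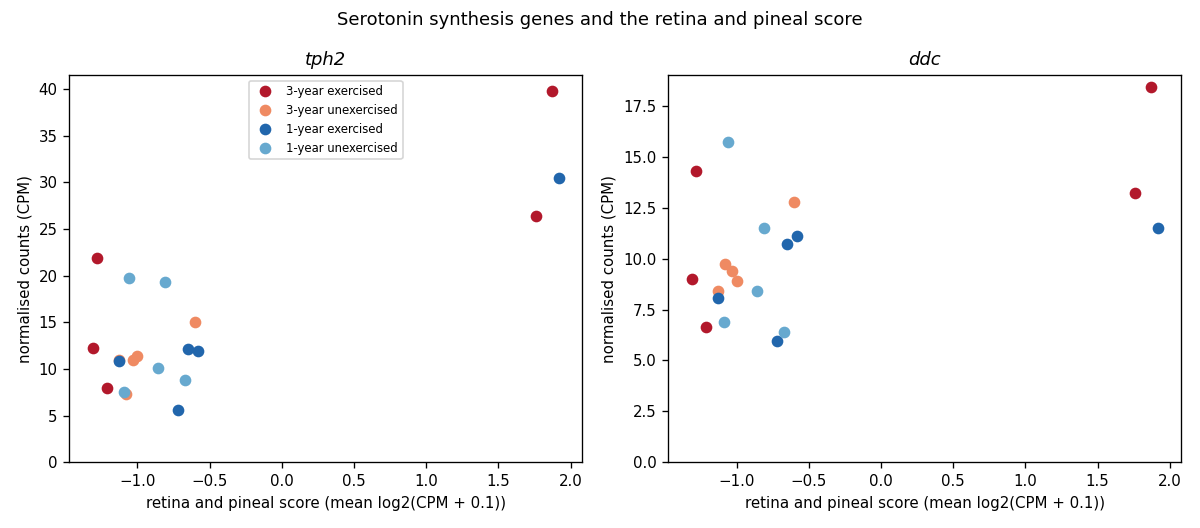
Level of tph2 (left) and ddc (right) in CPM against the retina and pineal score, mean log2(CPM + 0.1) over 26 markers; each point is a library, coloured by group. The 3 libraries at scores of 1.76 to 1.92 hold tph2 at 26.4 to 39.8 CPM, above the other 17.

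The serotonin transporter slc6a4a, which takes serotonin back up, was lower with exercise at 1 year by less than the test required. It averaged 4.22 ± 1.24 CPM in 1-year exercised and 5.81 ± 2.16 CPM in 1-year unexercised fish, a log2 fold change of -0.46 ± 0.25 with an adjusted p of 0.50. With replicate 1 of the exercised group left out it was -0.59, and with replicate 1 of the unexercised group left out it was -0.23. Its values at 1 year were 5.68, 2.54, 3.42, 4.92 and 4.52 CPM with exercise, against 9.09, 5.01, 6.77, 4.54 and 3.64 CPM without, and they overlapped. In exercised fish it averaged 6.07 ± 1.30 CPM at 3 years and 4.22 ± 1.24 CPM at 1 year, with a log2 fold change of 0.52 ± 0.25 and an adjusted p of 0.191.

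The shared genes act in several transmitter types. Ddc encodes aromatic amino acid decarboxylase, the second step of both dopamine and serotonin synthesis. It averaged 12.3 ± 4.59 CPM in 3-year exercised, 9.86 ± 1.74 CPM in 3-year unexercised, 9.47 ± 2.39 CPM in 1-year exercised and 9.77 ± 3.86 CPM in 1-year unexercised fish. The vesicular carrier slc18a2 loads monoamines and histamine into vesicles. Its levels were 7.88, 6.09, 5.10, 5.58 and 5.03 CPM in 3-year exercised fish and 4.23, 5.80, 3.16, 3.13 and 3.52 CPM in 1-year exercised fish. Of the 5 older libraries, 3 lay below the highest younger one, and the log2 fold change was 0.58 ± 0.47 with an adjusted p of 0.466. In 3-year unexercised fish 1 library held 0.83 CPM and the other 4 held 4.82 to 5.49 CPM. Mao encodes monoamine oxidase, the single zebrafish enzyme that breaks monoamines down. It was the most even of the genes, averaging 80.6 ± 9.27 CPM in 3-year exercised, 86.0 ± 9.76 CPM in 3-year unexercised, 77.8 ± 5.58 CPM in 1-year exercised and 85.2 ± 11.3 CPM in 1-year unexercised fish. Its 95% intervals lay between -0.34 and 0.26 on the log2 scale in the 4 comparisons of single groups.

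None of the exercise comparisons called any of the 10 genes in edgeR. At 1 year 0 of 10 were called and 0 had an unadjusted p below 0.05, beside 0.0189% and 11.5% of all genes. At 3 years 0 of 10 were called, beside 0.0284% of all genes, and 2 had an unadjusted p below 0.05, hdc and tph2, beside 8.07%. For the difference between the exercise effects 0 of 10 were called, beside 0.00473% of all genes, and averaged over the ages 0 of 10 were called, beside 0.908%. In each of these 2 comparisons hdc alone had an unadjusted p below 0.05, beside 4.75% of all genes for the difference and 13.8% for the average. DESeq2 called hdc at 3 years and no other of the 10 genes in these 4 comparisons, and limma-voom called none. The median log2 fold change of the 10 genes was -0.08 at 1 year and 0.11 at 3 years, beside -0.02 and 0.00 over all genes. For age it was 0.40 with exercise and -0.02 without, beside 0.01 and 0.00 over all genes. The comparisons share groups, so their medians are not independent of each other.

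**Figure D3:**
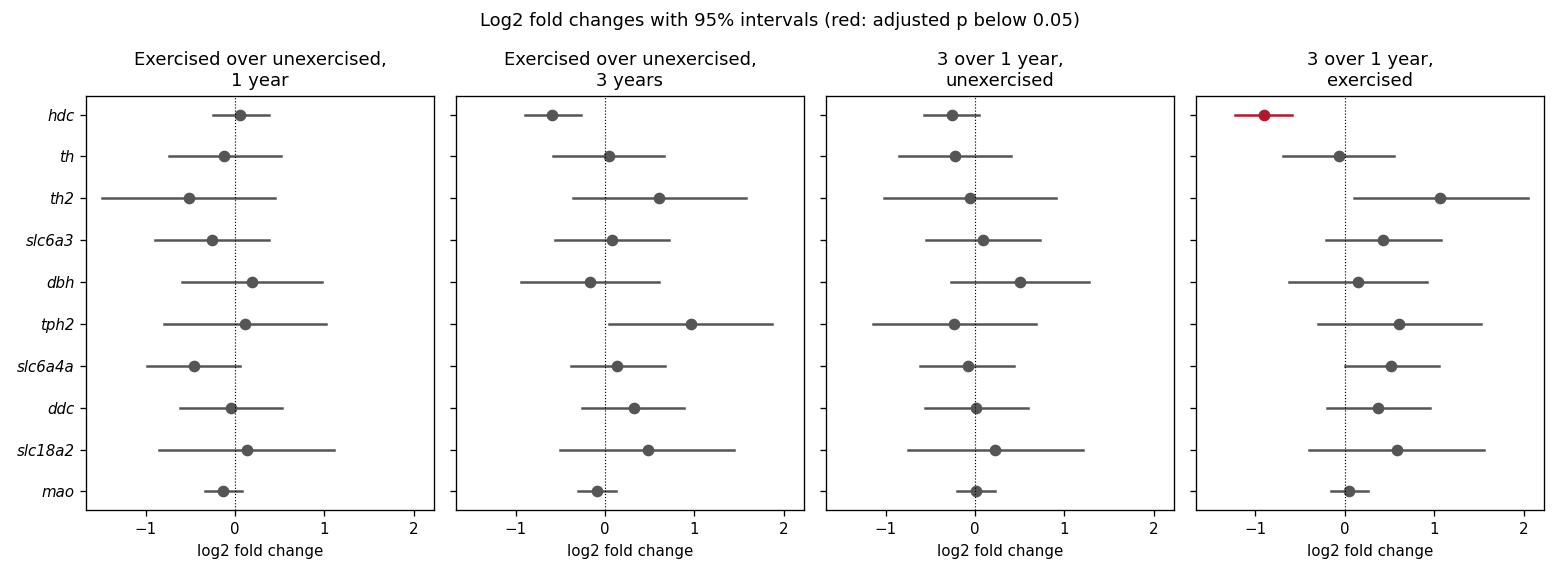
Log2 fold changes (points) with 95% intervals (lines) of the 10 genes in the 4 comparisons of single groups, 1 panel each, on a common horizontal axis. In red, hdc at -0.91 in 3-year over 1-year exercised fish is the single gene with an adjusted p below 0.05.

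Per transcript length the genes could be ranked against each other. As RPKM, reads per kilobase of transcript at a common library total, recomputed from the counts, mao averaged 18.7 ± 2.34 and hdc 13.8 ± 3.53 over the 20 libraries (SD). They were followed by th at 7.39 ± 2.26, tph2 at 6.76 ± 3.97, th2 at 5.97 ± 3.22 and slc6a3 at 3.28 ± 1.04 RPKM. The lowest were slc18a2 at 2.53 ± 1.16, ddc at 2.38 ± 0.761, slc6a4a at 2.15 ± 0.626 and dbh at 2.05 ± 0.836 RPKM. The order of mao over hdc held in 17 of 20 libraries, of hdc over th in 19 and of th2 over slc6a3 in 17. The neighbours th, tph2 and th2 kept their order in 13 of 20 libraries for each pair, and the 3 pairs among slc18a2, ddc, slc6a4a and dbh in 11 each, so these did not differ beyond their spread. Among the tested genes, hdc stood at the percentile 75.1 of RPKM and dbh at 33.8.

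**Figure D4:**
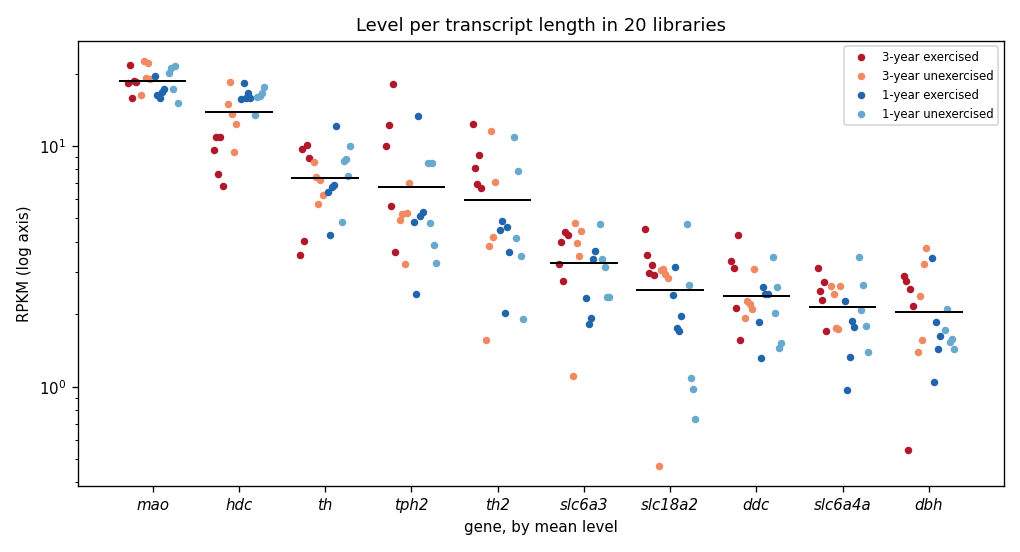
Level per transcript length (RPKM, log axis) of the 10 genes in each of 20 libraries, coloured by group; black lines are means over all libraries. The means run from 18.7 RPKM for mao to 2.05 RPKM for dbh.

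Most of the genes varied more between libraries of a group than other genes of like level did. The within-group SD of log2 CPM was 0.82 for slc18a2, 0.79 for th2, 0.73 for tph2 and 0.65 for dbh. Genes within 0.5 log2 units of the same mean level had median SDs of 0.37, 0.25, 0.21 and 0.36 beside these 4 genes, in that order. The SDs of slc6a3, th, ddc and slc6a4a were 0.54, 0.51, 0.46 and 0.40. The lowest were those of hdc, at 0.25 beside 0.16, and mao, at 0.16 beside 0.14. The width of the intervals above follows this spread.

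With the group means subtracted, the 10 genes were compared in 45 pairs over 20 libraries. The pair tph2 and ddc, successive steps of serotonin synthesis, had a Pearson correlation of 0.88 and a Spearman correlation of 0.87, with adjusted permutation p-values of 0.00045 and 0.00135. Without the 2 libraries farthest from the median of tph2, both of them among the 3 with high retina and pineal scores, the Pearson correlation was 0.90. It was the 1 pair that passed on both measures. The pair ddc and slc6a4a had a Pearson correlation of 0.72 and an adjusted permutation p of 0.0258, but the Spearman correlation of 0.62 had one of 0.178. The pair th and slc18a2 had -0.48 and 0.0258, against -0.41 and 0.227 by rank. The pair th2 and slc18a2 had 0.74 with an adjusted permutation p of 0.0792, and 0.47 without its 2 farthest libraries. The gene hdc had Pearson correlations between -0.25 and 0.18 with the other 9. Without the 2 libraries farthest from its median, 3-year exercised replicates 3 and 5, they lay between -0.60, with dbh, and 0.21, with th.

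**Figure D5:**
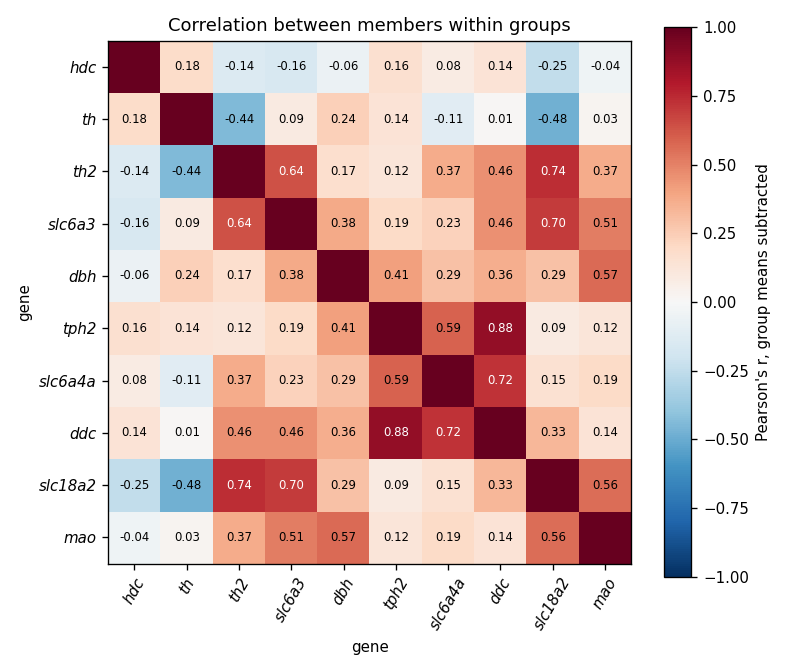
Pearson's r between the 10 genes over 20 libraries after subtracting group means; rows and columns are genes, and the colour runs from -1 (blue) to 1 (red). The pair tph2 and ddc at 0.88 is the highest, and the row of hdc lies between -0.25 and 0.18.

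The genes with the most similar pattern over the 20 libraries, by the same measure and as a description only, were in part of other kinds. Those nearest to hdc were cfap418 at 0.81, ndc80 at 0.79 and DNAI1, a dynein chain of motile cilia, at 0.79. The nearest to th2 was NMU, the neuropeptide neuromedin U, at 0.92. The nearest to dbh were PRPH, the neurofilament protein peripherin, at 0.92 and vipb, a vasoactive intestinal peptide gene, at 0.90. The nearest to slc6a3 was tac1, a tachykinin gene, at 0.86.

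Among 14 tested genes for other monoamine and histamine enzymes and carriers, 2 were called lower with age averaged over exercise, beside 7.3% of all genes tested. The carrier slc22a3, which takes up monoamines and histamine with low affinity, averaged 0.88 ± 0.261 CPM in 3-year exercised and 1.04 ± 0.384 CPM in 3-year unexercised fish, against 1.76 ± 0.458 CPM in 1-year exercised and 1.89 ± 0.575 CPM in 1-year unexercised fish. It was lower with age, with a log2 fold change of -0.93 ± 0.20 and an adjusted p of 0.00524. The plasma membrane monoamine transporter SLC29A4 (ENSDARG00000079873) averaged 23.1 ± 3.93 CPM in 3-year exercised and 25.2 ± 7.63 CPM in 3-year unexercised fish, against 34.2 ± 2.73 CPM in 1-year exercised and 31.6 ± 5.30 CPM in 1-year unexercised fish. Its log2 fold change was -0.45 ± 0.12, with an adjusted p of 0.0172. All 29 alternative settings called both. In exercised fish alone, slc22a3 changed by -1.0 ± 0.29 and SLC29A4 by -0.57 ± 0.17, with adjusted p-values of 0.0347 and 0.041. These calls were held in 22 and 19 of 30 alternative settings. That of slc22a3 was lost without 1-year exercised replicate 2, 3 or 5 or 3-year exercised replicate 1, 2 or 4, with adjusted p-values of 0.0556 to 0.101. It was also lost without the high retina libraries, at 0.173, and without the high muscle, epidermis or pituitary libraries, at 0.0776. That of SLC29A4 was lost without any 1 of the 1-year exercised libraries or 3-year exercised replicate 1, 2 or 3, with 0.0535 to 0.115. It was also lost without each of these 2 sets of libraries, at 0.0834 and 0.0577, and with library totals as the only scaling, at 0.0837. A second SLC29A4 copy was not called, and in exercised fish it changed with age by -0.25 ± 0.14, with an adjusted p of 0.256 in edgeR. Whether reads were shared between the copies was not tested.

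The receptors for these transmitters were called lower at about the share of all genes, which was 7.3% with age averaged over exercise. Of 14 tested serotonin receptors, 0 had a log2 fold change above 0 in the age comparison averaged over exercise, with a median of -0.32 beside 0.00 over all genes. Of these, 1 was called lower, htr1b, a receptor that damps transmitter release, at -0.40 ± 0.12 with an adjusted p of 0.0309. Its range was 4.27 to 8.54 CPM in 3-year exercised and 5.83 to 9.82 CPM in 3-year unexercised fish, against 9.87 to 10.9 CPM in 1-year exercised and 8.44 to 11.7 CPM in 1-year unexercised fish. The call held in 23 of 29 alternative settings and was lost without 1-year exercised replicate 4, 3-year unexercised replicate 1 or 3 or 1-year unexercised replicate 2 or 3, with adjusted p-values of 0.0501 to 0.056. With library totals as the only scaling it was 0.0801. In edgeR, 6 of the 14 serotonin receptors had an unadjusted p below 0.05, beside 31.1% of all genes tested. DESeq2 called 3 of the 14 and limma-voom 2. The shares of all genes that DESeq2 and limma-voom called in this comparison are not given here. Of 14 adrenergic receptors 1 was called lower, ADRA1D at -0.28 ± 0.09 with an adjusted p of 0.0399. That call was held in 10 of 29 alternative settings, with adjusted p-values of up to 0.145, while DESeq2 called 2 adrenergic receptors and limma-voom 0. Of 12 dopamine receptors 0 were called by edgeR, with 3 at an unadjusted p below 0.05 and 1 called by DESeq2 and by limma-voom. The histamine receptor hrh3 was the single histamine receptor tested, at -0.45 ± 0.31. The neuron markers lower with age, given beside hdc above, bear on the same libraries, and their part in the receptor values was not tested.

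The cofactor and identity lists gave no calls in edgeR, where age averaged over exercise called 16.9% of all genes and gave 31.1% an unadjusted p below 0.05. Of 7 genes for tetrahydrobiopterin, the cofactor of the tyrosine and tryptophan hydroxylases, 0 were called with age averaged over exercise, with 2 at an unadjusted p below 0.05 and 1 called by DESeq2. Of 24 transcription factors known for aminergic neuron identity, 0 were called, with 3 at an unadjusted p below 0.05 and 0 called by limma-voom or, of the 22 with an adjusted p there, by DESeq2. In the exercise comparisons no gene of the enzyme, cofactor, receptor or identity lists was called by edgeR. There DESeq2 called 1 of the other enzymes and carriers at 1 year, 1 averaged over the ages, and 1 serotonin receptor averaged over the ages. The counts of these lists at an unadjusted p below 0.05 were between 0 and 5. The largest were 5 of 14 other enzymes and carriers at 3 years, beside 8.07% of all genes, and 5 of 24 identity factors at 1 year, beside 11.5%. For the difference and the average the shares of all genes were 4.75% and 13.8%.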

How the data were processed

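RNA was measured in 20 brain libraries, 4 groups of 5. Per the submitters' processing notes, tools named are bcl2fastq 1.8.4, STAR 2.4.1d and featureCounts 1.4.6-p4, with genome build GRCz10. The authors deposited raw read counts per gene and RPKM values. The deposited RPKM values divide by totals recycled down the genes: over 10136 genes with more than 200 counts in every library, the implied transcript length varied by 0.00217% between libraries under recycled totals and by 13.8% under each library's own total (coefficient of variation). They were used only for lengths, and RPKM was recomputed.

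The test on counts was that of edgeR 4.0.16 (R 4.3.3), with filterByExpr (minimum count 10, total 15), trimmed mean scaling, robust quasi-likelihood fit over all 20 libraries with a mean per group, and Benjamini-Hochberg adjustment over 21148 genes at 0.05. The scripts were tested on simulated data. Alternatives used DESeq2 1.42.0 and limma 3.58.1. Two-sided correlation tests took 100000 permutations within groups (Python 3.11.15, NumPy 2.4.6, SciPy 1.17.1). All 10 members are named, and from other lists the genes with an adjusted p below 0.05, up to 4 by smallest p, or examples. Members and lists were chosen with earlier results of these data known. The relations of the 10 genes to marker scores (110 relations) were added after the data were seen. Of 32105 identifiers, 26269 matched a symbol. Some genes of these lists are not reported here.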

Additional observations from a re-analysis of the deposited data

Results flagged for a closer look

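Each of the 10 genes was checked in each of the 4 groups for a library far from the other 4, by its gap to the nearest one as a share of the group's range (Dixon's test at the 95% level), which made 40 checks, and 2 libraries were found. Chance gives about 1 in 20 such checks. The level of tph2 in 1-year exercised replicate 3 was 30.4 CPM, against 5.62 to 12.1 CPM in the other libraries of its group, and this library has a high retina and pineal score. The level of slc18a2 in 3-year unexercised replicate 1 was 0.829 CPM, against 4.82 to 5.49 CPM in the other 4. The same library held the lowest slc6a3 and th2 values of all 20, at 2.42 and 2.59 CPM. It was 1 of the 2 libraries farthest from the median hypothalamus score. Within groups, that score had Pearson correlations of 0.75 with slc6a3, 0.58 with th2 and 0.52 with slc18a2. Their permutation p-values were 0.0907, 0.15 and 0.19, adjusted over 110 relations. Without the 2 farthest libraries the correlations were 0.51, 0.22 and 0.14. The part of the hypothalamus in these values was not tested.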

How the results depend on the processing

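Of 2070 values of the 10 genes under the alternatives, 1973 kept their direction and side of the threshold, 2 passed it newly and 95 changed sign, of values that were not called. No call of the 10 genes was lost. The newly called were hdc with exercise at 3 years under DESeq2 (-0.59) and th2 with age in exercised fish when only the groups compared were fitted (1.08). The cause was not tested.

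Without the 3 libraries with high retina scores, the log2 fold changes that changed sign were, with exercise at 1 year, tph2 at -0.38; at 3 years, th at -0.36 and slc6a3 at -0.05; for the difference of these, th at -0.27 and mao at -0.08; averaged, tph2 at -0.023, ddc at -0.055 and dbh at -0.10; with age in exercised fish, dbh at -0.081 and mao at -0.067; and with age averaged, mao at -0.027. Without the 3 libraries with high muscle, epidermis or pituitary scores they were ddc at 0.20 (exercise, 1 year), slc6a4a at -0.023 (exercise, 3 years), slc18a2 at -0.29 and mao at -0.008 (difference), dbh at -0.10 and slc6a3 at 0.061 (exercise averaged), tph2 at 0.10 and slc6a4a at 0.22 (age without exercise) and th at 0.10 (age with exercise). Under limma-voom they were ddc at 0.012 (exercise, 1 year), th at -0.053 (exercise, 3 years), dbh at -0.069 (exercise averaged) and slc6a3 at -0.026 (age without exercise). With upper-quartile scaling and with library totals only, dbh was -0.002 averaged over the ages.

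Leaving out 1 library at a time changed signs in these ranges. With exercise at 1 year th ran from -0.37 to 0.023, tph2 from -0.38 to 0.32, ddc from -0.16 to 0.20, dbh from -0.13 to 0.33 and slc18a2 from -0.084 to 0.75. At 3 years th ran from -0.11 to 0.20, dbh from -0.31 to 0.077 and slc6a3 from -0.15 to 0.20. For the difference slc18a2 ran from -0.27 to 0.56 and mao from -0.025 to 0.10. Averaged, th ran from -0.17 to 0.047, th2 from -0.076 to 0.28, dbh from -0.15 to 0.13 and slc6a3 from -0.20 to 0.011. With age in unexercised fish th2 ran from -0.52 to 0.36, ddc from -0.11 to 0.26, slc6a3 from -0.024 to 0.32, slc6a4a from -0.21 to 0.15 and mao from -0.051 to 0.069. With age in exercised fish th ran from -0.22 to 0.18 and mao from -0.011 to 0.11, and with age averaged mao ran from 0.00 to 0.06.

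The count of all genes called was 4 for exercise at 1 year, 6 at 3 years, 1 for their difference, 192 averaged, 124 for age without exercise, 2252 with exercise and 3584 averaged. DESeq2 gave 268, 118, 12, 660, 533 and 3403 for all but age averaged. Without the high retina libraries they were 0, 1, 0, 12 and, for age with exercise, 843. Without the high muscle, epidermis or pituitary libraries they were 2 (exercise, 1 year), 0 (difference) and 1390 (age with exercise). Library totals only gave 1, 3 and 0 for the first 3 comparisons. Limma-voom gave 17 and 3 for the first 2. Fitting only the groups compared gave 8 (exercise, 1 year) and 46 (age without exercise). No filter and no robust dispersion each gave 0 for the difference. Leaving out 1 library gave 0 to 169, 1 to 26, 0 to 1, 89 to 425, 76 to 260, 899 to 2643 and 2889 to 4292 in the same order. The 899 came without 3-year exercised replicate 1, the 169 and 425 without 1-year unexercised replicate 5, and the 260 without 3-year unexercised replicate 1.

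Without division by length the ranks were tph2 at 3, th at 4, ddc at 5, th2 at 6, slc6a3 at 7, slc6a4a at 8, dbh at 9 and slc18a2 at 10. No paired analysis was possible because the labels give no replicate numbers, so the numbers used only name the libraries. Depth limits slc18a2 most, with 25 counts in its lowest library.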
